A study of Bos taurus with 21 samples.

Results

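Hypothalamus of restricted anovulatory (RA) heifers and of well-fed control heifers (Bos taurus) was compared by single-read sequencing of polyA-selected mRNA, with 7 libraries in each group. These are the 14 of 21 libraries whose titles name those 2 groups. The other 7, from restricted heifers that kept ovulating (RO), were used only where named. RA heifers were fed at 0.4 Mn (the labels' unit of feeding level, set against estimated energy requirement) and did not ovulate, whereas controls were fed at 1.2 Mn and ovulated. Tissue was collected at slaughter after 18 days of differential feeding in both groups. No source used here gives breed, age or the stage of the cycle at collection. RA and RO heifers received the same diet and were separated by whether they ovulated, so the RA group was defined by its response. RA and control therefore differ in both feed intake and ovulation, and these cannot be told apart in this comparison. The labels number the libraries as replicates 1 to 7 of each group. They do not state that each is a separate animal, so p-values measure the spread between these libraries.

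The hypothalamus holds the neurons that release gonadotropin-releasing hormone, whose pulses drive the pituitary to secrete luteinising hormone and so bring about ovulation. It also holds the arcuate nucleus neurons that sense leptin, insulin and nutrients and that stimulate or suppress appetite. Cattle that lose condition on a restricted diet can stop cycling, with less frequent luteinising hormone pulses. This comparison sets anovulatory heifers on a restricted diet against well-fed ones. Neither body condition nor hormone pulses are among the values used here.

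Total counts were 4012398 ± 345141 per library in RA and 3916686 ± 150715 in controls (SD, n = 7 each), which did not differ beyond their spread (two-sided exact permutation test over 3432 arrangements, p = 0.506). Of 22984 identifiers, 13230 passed the filter on low counts and held 99.7% of all reads counted. The files do not pair the identifiers with gene names, and 0 of 22984 matched the RefSeq gene table used here (ARS-UCD2.0). Genes are therefore given by identifier, without function, position or sequence, and the labelled tissue was not checked against marker genes. The 38 lists of appetite, reproductive, metabolic and cell type genes drawn up for this comparison were not tested.

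Each file name has a date-like token, taken here as the sequencing run. Run A (token 100518) held RA replicate 2 and control replicate 5, run B (100531) held control replicate 1, run C (100616) held RA replicates 1 and 3 and the other 5 controls, and run D (100723) held RA replicates 4 to 7. Only runs A and C held both groups, and 4 of 7 RA libraries came from a run without controls. The first 2 principal components of log2 CPM (counts scaled to library size, prior count 2) carried 24.8% and 19.0% of the variance and did not separate the groups. On both, control replicate 5 was far from the remaining 13 libraries.

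**Figure D1:**
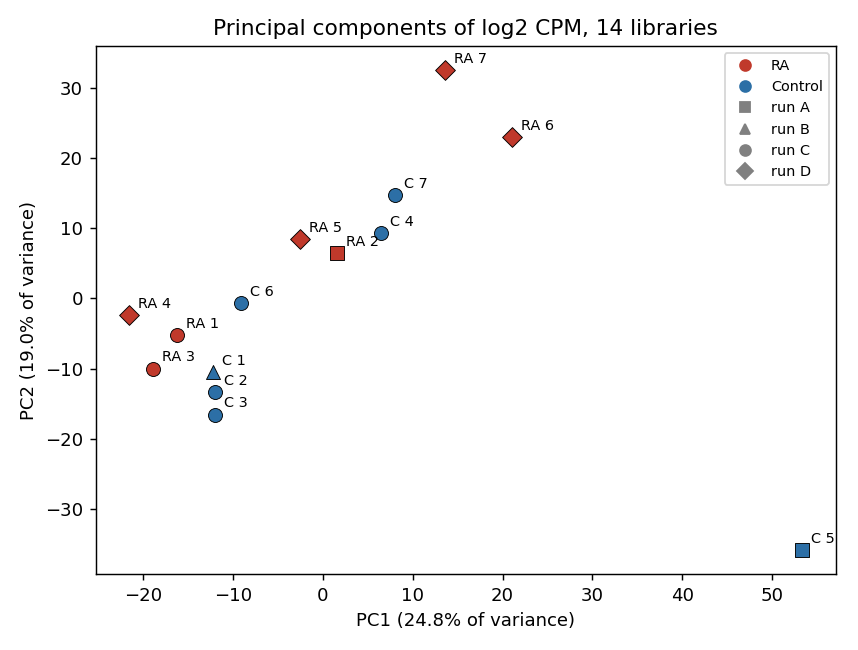
First and second principal components of log2 CPM over 13230 genes, 1 point per library (C, control). Colour gives the group and marker shape the run. RA and control libraries are intermixed, and control replicate 5 stands alone at the lower right.

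No gene differed between RA and control heifers at an adjusted p of 0.05 (0 of 13230, 0%). This is from edgeR's quasi-likelihood test with Benjamini-Hochberg adjustment, in which the smallest adjusted p was 0.524. The count was likewise 0 with DESeq2, which put 1270 genes at an unadjusted p under 0.05, and with limma-voom with library quality weights, which put 1661 there. In edgeR's test 1235 genes (9.33%) had an unadjusted p under 0.05, where a uniform distribution of p-values would put 661.5. RA had the higher level for 671 of them (5.07%) and the lower level for 564 (4.26%). The count was above that of a uniform distribution only for moderately low p-values. Under 0.01 lay 210 genes, where 132.3 would be expected, and under 0.001 only 5, where 13.2 would be. Genes measured in the same libraries are not independent, and whether these counts exceed chance was not tested. The differences behind these p-values were small: 1089 of the 1235 genes (88.2%) had a fitted difference of under 1.5-fold. Their median log2 difference was 0.25 for those higher in RA and -0.29 for those lower in RA.

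Of the genes with the smallest p-values, the 2 in each direction are described in full. They were picked on these same libraries, so their p-values and their separation are a description. In bulk tissue, a lower value can come from fewer cells that express a gene or from less RNA per cell, and these cannot be told apart.

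ENSBTAG00000021312 had the smallest p-value among genes higher in RA. In RA replicates 1 to 7 it measured 195, 185, 193, 224, 208, 181 and 204 CPM. In control replicates 1 to 7 it measured 152, 172, 163, 162, 151, 171 and 186 CPM. The groups overlapped only through control replicate 7, which lay above RA replicates 2 and 6, and 5 of 7 RA libraries exceeded every control. The mean was 199 ± 14.5 CPM in RA and 165 ± 12.1 in controls (SD, n = 7 per group). The log2 fold change was 0.27 (SE 0.060, 95% interval 0.14 to 0.39, edgeR adjusted p = 0.524). Within run C, the 2 RA libraries averaged 194 CPM and the 5 controls 171. In run D, the 4 RA libraries averaged 204 CPM. With run in the fit, the log2 fold change was 0.21.

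ENSBTAG00000002147 showed a difference of similar size at a lower level. RA replicates 1 to 7 measured 62.6, 58.4, 56.9, 62.7, 55.9, 57.9 and 66.9 CPM, and control replicates 1 to 7 measured 49.7, 46.9, 48.5, 45.5, 47.2, 51.6 and 56.5 CPM. Control replicate 7 was again the only control inside the RA range, above RA replicate 5 alone. The means were 60.2 ± 3.98 CPM in RA and 49.4 ± 3.73 in controls, a log2 fold change of 0.28 (SE 0.067, 95% interval 0.14 to 0.43, edgeR adjusted p = 0.524). RA was at 58.4 CPM in run A (1 library), a mean of 59.8 in run C (2 libraries) and a mean of 60.9 in run D (4 libraries). Controls were at 47.2 CPM in run A, 49.7 in run B and a mean of 49.8 in run C. With run in the fit, the log2 fold change was 0.275, against 0.284 without it.

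ENSBTAG00000009165 had the smallest p-value of all 13230 genes and was lower in RA. RA replicates 1 to 7 measured 18.5, 24.9, 25.3, 16.1, 21.6, 19.1 and 17.6 CPM, and control replicates 1 to 7 measured 30.2, 26.3, 26.6, 33.9, 32.0, 32.1 and 25.3 CPM. The groups did not overlap, but the gap was narrow: RA replicate 3, the highest RA library, was at 25.25 CPM and control replicate 7, the lowest control, at 25.31. The means were 20.4 ± 3.57 CPM in RA and 29.5 ± 3.39 in controls, a log2 fold change of -0.53 (SE 0.12, 95% interval -0.78 to -0.28, edgeR adjusted p = 0.524). RA libraries averaged 21.9 CPM in run C and 18.6 in run D, against 28.8 for controls in run C. With run in the fit, the log2 fold change was -0.39.

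ENSBTAG00000019770 had the largest difference of the 4 and the fewest reads, between 6 and 55 per library. RA replicates 1 to 7 measured 1.63, 3.52, 3.22, 7.0, 2.67, 2.85 and 3.56 CPM. Control replicates 1 to 7 measured 9.50, 2.68, 10.2, 14.2, 9.34, 7.52 and 9.96 CPM. Control replicate 2 lay within the RA range, and the other 6 controls exceeded every RA library. The means were 3.49 ± 1.68 CPM in RA and 9.06 ± 3.47 in controls, a log2 fold change of -1.37 (SE 0.32, 95% interval -2.06 to -0.69, edgeR adjusted p = 0.524). In run C the 2 RA libraries averaged 2.43 CPM and the 5 controls 8.92, and in a fit with run the log2 fold change was -1.72. This was 1 of only 2 genes of 13230 tested, both lower in RA, whose 95% interval lay wholly beyond a 1.5-fold difference. The intervals are not adjusted for the number of genes. This gene was picked by its p-value in the same fit, so the place of its interval is a description.

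**Figure D2:**
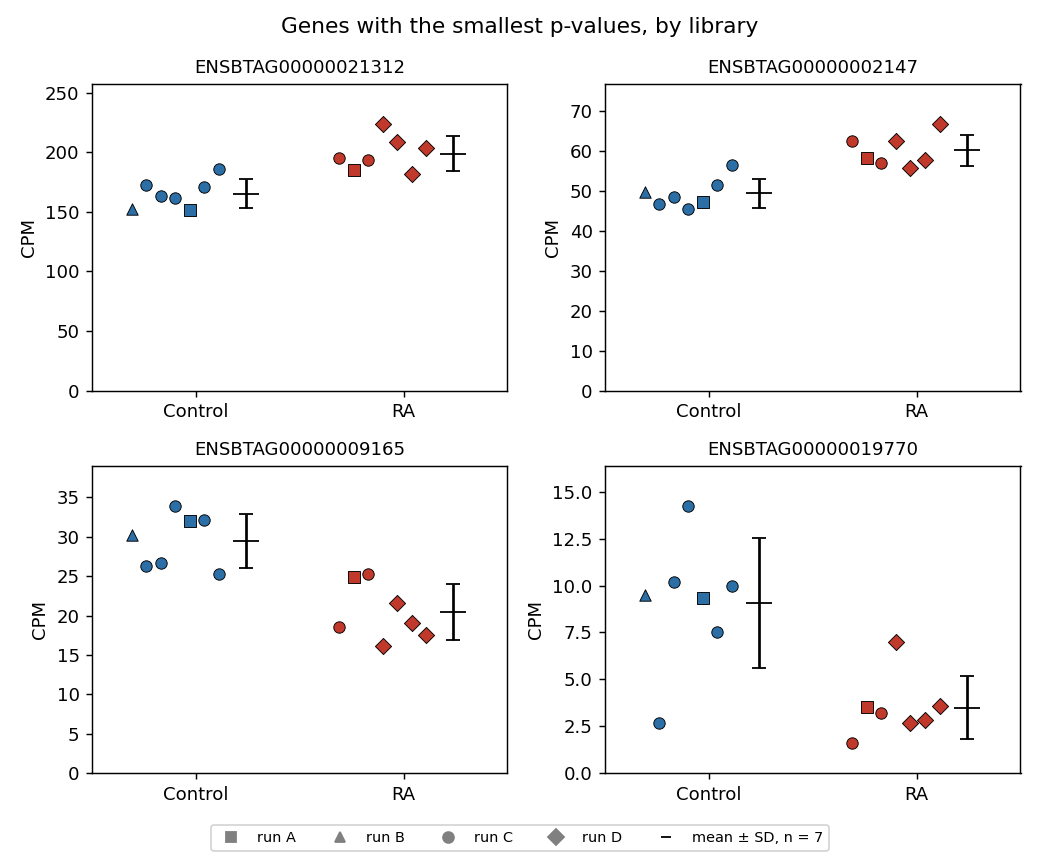
CPM of the 4 genes in each library (points, in replicate order from left to right, shaped by run) with the group mean ± SD (n = 7). The groups separate without overlap only for ENSBTAG00000009165, and control replicate 2 falls among the RA libraries for ENSBTAG00000019770.

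In RO heifers, on the same diet as RA, the mean level of each of these 4 genes lay nearer to the control mean than to the RA mean (scaled over all 21 libraries). ENSBTAG00000021312 measured 169 ± 18.1 CPM in RO and ENSBTAG00000002147 measured 53.2 ± 7.50 (SD, n = 7 each). ENSBTAG00000009165 measured 31.3 ± 8.46 CPM in RO and ENSBTAG00000019770 measured 8.02 ± 2.48. The log2 difference of RA from RO was 0.23 for ENSBTAG00000021312 (SE 0.067), 0.17 for ENSBTAG00000002147 (SE 0.082), -0.63 for ENSBTAG00000009165 (SE 0.14) and -1.21 for ENSBTAG00000019770 (SE 0.31). None of the 4 passed in edgeR's test of RA against RO (adjusted p = 0.101, 0.235, 0.0927 and 0.0927 in that order). The RO libraries shared only run A with RA, and both differences use the same RA libraries. The 4 genes were picked for their difference of RA from control, which tends to place RA far from RO as well. These values are therefore a description.

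For 7 genes (0.0529%) the RA and control libraries did not overlap at all, 3 (0.0227%) with every RA library above every control and 4 (0.0302%) with every RA library below. The 3 genes higher in RA had log2 differences of 0.19 to 0.24, and the 4 lower in RA of 0.13 to 1.37 in size. These 7 included genes far from the lowest p-values, with ranks by p from 1 to 793. ENSBTAG00000009165 was 1 of the 4. The number of such genes that chance alone gives was not computed, so the 7 are a description and not evidence of a difference. With 1 library left out the count was 8 to 134, and the highest count came without control replicate 7. Fewer libraries make an overlap less likely by construction, so a higher count was close to fixed beforehand. Omitting RA replicate 2 gave 28 genes and omitting RA replicate 3 gave 27.

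The most abundant genes were measured most precisely and showed the smallest differences. Of 3205 genes averaging over 100 CPM, 96.8% had a fold change whose 95% interval stayed inside 1.5-fold both ways, and their median standard error was 0.078 on the log2 scale. None of them differed by over 2-fold, and the largest log2 difference was 0.66. Of 8038 genes at 10 to 100 CPM, 79.9% had intervals within 1.5-fold (median standard error 0.12). Of 1987 genes at 1 to 10 CPM only 23.1% did, with a median standard error of 0.26. The share of genes at an unadjusted p under 0.05 was 9.80%, 9.73% and 7.0% in these classes. Over all tested genes 9982 (75.4%) had intervals within 1.5-fold and 12384 (93.6%) within 2-fold.

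Fitted differences of over 2-fold were seen for 81 genes (0.612%), 25 higher and 56 lower in RA, and most were set by 1 library. Of the 56 genes lower in RA, 53 had their highest value in control replicate 5. Of the 25 higher in RA, 17 had theirs in RA replicate 2. Both libraries are from run A. For only 2 of the 81 genes, ENSBTAG00000019770 among them, did the ratio of group mean CPM (0.25 added to each mean) stay above 2-fold whichever single library was left out. Leaving out the library that favours the difference most lowers this ratio by construction, so a gene just over 2-fold can easily fall under it. For 58 genes the ratio went under 1.5-fold without 1 library. In a fit without control replicate 5, 26 genes were over 2-fold, 20 higher and 6 lower in RA. That fit leaves out a library on the control side alone. Without both run A libraries, control replicate 5 and RA replicate 2, 20 genes were over 2-fold, 10 higher and 10 lower in RA.

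The 53 genes were expressed in control replicate 5 at a median of 54.8 CPM (range 12.9 to 308), against a median of 5.43 in the other controls and 4.38 in RA. In control replicate 5 they lay a median of 3.08 log2 units above the median of the other controls (range 1.38 to 6.97). In the other run A libraries the same genes lay a median of 0.49 log2 units above the rest of the group in RA replicate 2 and 0.062 above in RO replicate 7. Of the 53, 11 exceeded the rest of the group by over 2-fold in RA replicate 2 and 2 did in RO replicate 7. The 17 genes had a median of 66.6 CPM in RA replicate 2 (range 8.93 to 359), 7.43 in the other RA libraries and 6.59 in controls. Relative to the median of the other libraries of the group, they lay a median of 3.34 log2 units higher in RA replicate 2. They lay at -0.50 in control replicate 5 and at -0.61 in RO replicate 7. Both sets were chosen by the difference between RA and control, so a gene high in both control replicate 5 and RA replicate 2 could hardly enter either, and their levels in those 2 libraries are a description. Whether tissue sampled, RNA quality or the animal accounts for them was not tested.

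**Figure D3:**
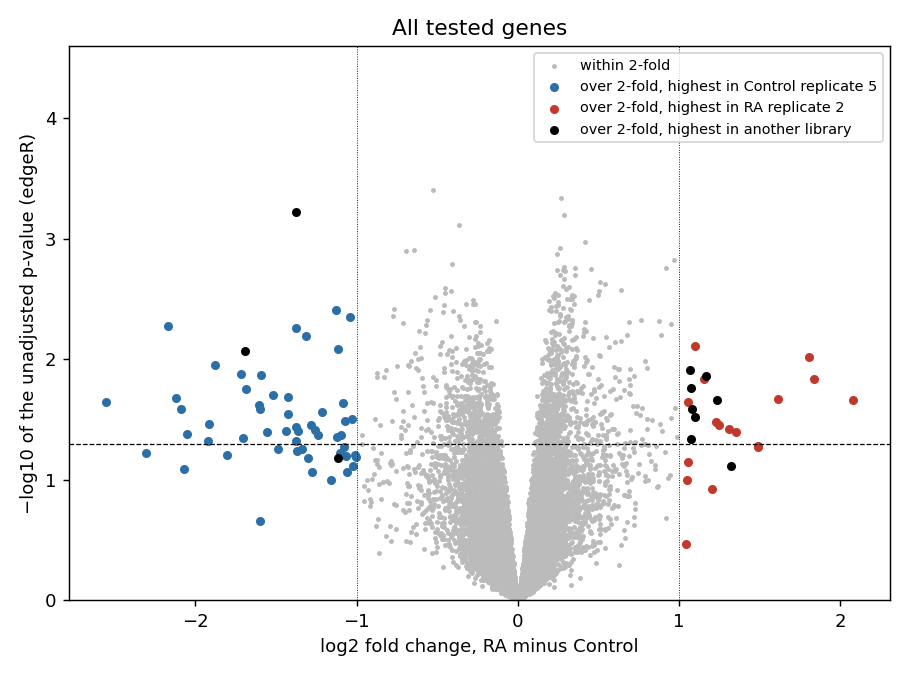
Log2 fold change (RA minus control) against −log10 of the unadjusted edgeR p-value for 13230 genes. The dashed line marks the unadjusted threshold of 0.05 and the dotted lines 2-fold. Of the 81 genes beyond 2-fold, the blue points (53, left) are highest in control replicate 5 and the red points (17, right) in RA replicate 2.

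Across all tested genes, control replicate 5 was also the library most often far from its group. A library was counted as set apart for a gene where its gap to the nearest of the other 6 as a share of the group's range exceeded Dixon's 95% limit. Control replicate 5 was set apart for 1108 genes (8.37%), 492 high and 616 low. The other 6 controls were set apart for 0.098% to 1.47% of genes. RA replicate 4, from run D, was set apart for 430 genes (3.25%), against 0.20% to 0.94% for the other 6 RA libraries. The median standard deviation of log2 CPM was 0.20 in RA and 0.23 in controls, and 0.19 in controls without replicate 5. With all libraries, 40.7% of genes varied more in RA than in controls, and without control replicate 5 56.2% did. That second share leaves out a library on the control side alone. Without RA replicate 4, the median standard deviation in RA was 0.18.

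**Figure D4:**
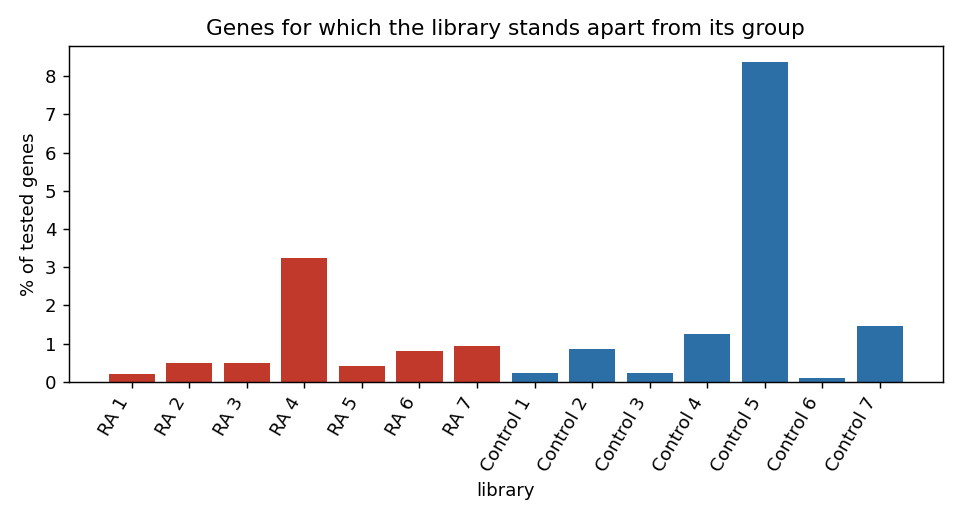
Percentage of the 13230 tested genes for which each library was separated from the other 6 of its group by more than Dixon's 95% limit (red, RA; blue, control). Control replicate 5 reaches 8.37% and RA replicate 4 3.25%, while each of the other 12 libraries is at or below 1.47%.

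With any 1 of the 14 libraries left out, edgeR's adjusted test again passed 0 genes, but the number with an unadjusted p under 0.05 moved from 795 to 2274. The highest count was without control replicate 7, with 1129 genes higher and 1145 lower in RA and a smallest adjusted p of 0.185. That list held 1179 of the 1235 genes of the full comparison, which is 95.5% of the full list and 51.8% of the longer one. The lowest count, 795, was without RA replicate 4, and 708 of its genes were among the 1235 (57.3% of the full list and 89.1% of the shorter one). Without control replicate 5 the count was 1169, of which 781 were among the 1235. In all, 458 of the 1235 genes (37.1%) had an unadjusted p under 0.05 in each of the 14 fits, 273 higher and 185 lower in RA. The 4 genes described above were among them. They were picked for their small p-values on the same libraries, and each fit drops only 1 library. Their place among the 458 was therefore close to fixed beforehand.

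**Figure D5:**
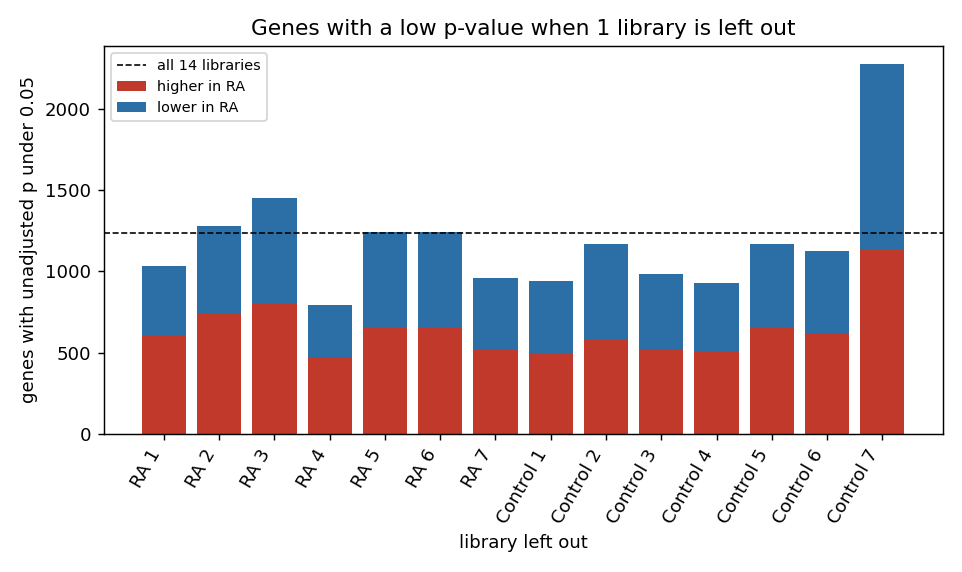
Number of genes with an unadjusted edgeR p under 0.05 when the library on the x axis is left out, split by direction (red, higher in RA; blue, lower in RA). The dashed line is the count with all 14 libraries (1235). Only the fit without control replicate 7 (2274) rises far above it, and the fit without RA replicate 4 (795) is the lowest.

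Adding run to the model left 0 genes past the threshold. An unadjusted p under 0.05 was then found for 879 genes, 316 higher and 563 lower in RA. The balance of directions thus went from 54.3% higher in RA to 35.9%. Run D held RA libraries alone and run B only control replicate 1, so neither adds to the fold changes of this fit. Those fold changes rest on run C and on run A. In run A, RA replicate 2 was set against control replicate 5, the library set apart for the most genes. Of the 150 genes over 2-fold in this fit, 131 were lower in RA. How far control replicate 5 accounts for the change of balance was not tested. In the libraries of runs A and C alone, again with run in the model, 0 genes passed. There 1217 genes were at an unadjusted p under 0.05, 487 higher and 730 lower in RA. The terms for run themselves passed an adjusted p of 0.05 for 2 genes, and 1637 genes (12.4%) had an unadjusted p under 0.05 for them. Without control replicate 5 these numbers were 16 and 566 (4.26%). Run A then held only RA replicate 2 and run B only control replicate 1, so the levels of these runs rest on single libraries. These numbers therefore do not measure how much run matters.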

How the data were processed

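The values are the raw counts of reads per gene that the authors deposited, in whole numbers and without normalization, with a table for each library. CASAVA 1.4, Bowtie, SAMtools and HTSeq were used, per the submitters' processing notes. No source used here gives the genome build, annotation release, strand setting or handling of duplicate reads. Groups came from sample titles. Genes were kept by edgeR's filterByExpr on the 14 libraries (a depth-scaled minimum count of 10 in 7 or more libraries and a summed count of 15 or more). Counts were scaled by TMM and tested by the robust quasi-likelihood F-test (edgeR 4.0.16, R 4.3.3) on group alone, with Benjamini-Hochberg adjustment over 13230 genes. A standard error is the log2 fold change over the square root of its F statistic. Alternatives included DESeq2 1.42.0, limma-voom 3.58.1 with library quality weights, scaling, filters, run, a replicate block and single libraries left out. The scripts were tested on simulated data. Genes were named by a rule for unmatched identifiers, the 2 smallest p-values in each direction. The comparison, lists and rules were chosen with earlier results of these data known. Over 91 pairs of libraries the chi-square of the counts, divided by its degrees of freedom, was at least 2.19, above the value of about 1 that sampling noise gives.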

Additional observations from a re-analysis of the deposited data

Results flagged for a closer look

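Of 18 sets of 7 values examined, 5 had a highest or lowest library past Dixon's 95% limit. For normally distributed values, chance alone gives this in about 1 in 20 sets. Several of these sets describe the same libraries and are not independent, so the 5 cannot be set against that rate as a test. Control replicate 5 accounted for 3 of them. Its mean correlation of log2 CPM with the other controls was 0.927, where theirs were 0.956 to 0.967. Its 10 most abundant genes took 1.12% of its counts, against 1.23% to 1.29% in the other controls. It was set apart for 8.37% of genes, against at most 1.47%. RA replicate 4 was set apart for 3.25% of genes, against at most 0.94% in the other RA libraries. For ENSBTAG00000019770, control replicate 2 was at 1.67 log2 CPM, against 3.0 to 3.88 in the other controls. The causes were not tested.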

How the results depend on the processing

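The count of 0 genes at an adjusted p of 0.05 held under all 27 alternatives run, including an adjusted threshold of 0.1. The 4 genes given by identifier kept their direction under all 26 that apply to them (edgeR, DESeq2 or limma-voom adjusted p from 0.185 to 0.761). These 4 were picked on the same libraries that the alternatives refit in full or in part, so a kept direction was close to fixed beforehand. Genes at an unadjusted p under 0.05 numbered 795 to 2274 with 1 library left out and 800 without both control replicate 5 and RA replicate 4. Genes over 2-fold, 81 in the main comparison, numbered 2030 with no filter, 44 with the filter of at least 5 CPM in at least 7 libraries, 45 with DESeq2 and 18 with limma-voom and library quality weights, in which control replicate 5 had a weight of 0.254. They numbered 150 with run as a covariate, 212 in runs A and C alone and 33 with the replicate number as a block. They numbered 26 to 106 with 1 library left out (26 without control replicate 5), 33 without control replicate 5 and RA replicate 4, and 20 without run A. Genes whose libraries did not overlap, 7 in all, numbered 4 under the stricter filter, 8 to 134 with 1 library left out (134 without control replicate 7), 18 without control replicate 5 and RA replicate 4, and 42 without run A. With fewer libraries an overlap is less likely by construction. The causes of the other shifts were not tested. Leaving out 2 libraries together, and counting genes over 2-fold, were chosen after seeing the data. The replicate block left 0 genes passing and 954 at an unadjusted p under 0.05. The numbers did not pair the libraries: deviations of same-numbered libraries correlated from -0.33 to 0.26, with 2 of 7 pairs above 0.1, and 3 of 14 libraries correlated best with their own number. Intervals were widest in genes under 10 CPM.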

Other observations

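With control replicate 5 set aside, control replicate 7 was the only control whose mean correlation of log2 CPM was higher with the RA libraries (0.971) than with the other controls (0.963). RA replicates 1, 2, 3 and 5 correlated better with those controls than with the other RA libraries (for RA replicate 3, 0.975 and 0.968). RA replicates 4, 6 and 7, all from run D, correlated better with RA (for RA replicate 7, 0.961 and 0.956). RA replicate 5 is from run D as well and went the other way (0.970 with RA and 0.973 with those controls). These are values of single libraries and no group was redrawn from them.

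No gene was present in 1 group and absent from the other at a level that could be tested. Reads were counted only in controls for 587 genes and only in RA for 612, with at most 18 and 17 reads over the 7 libraries together, and 0 of these genes passed the filter on low counts.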
